A study of Mus musculus with 8 samples.

Results

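The genes of the complement and coagulation cascades were examined in liver RNA of male mice labelled Mdr2-/-. They were chosen as the genes that the deposited table places in the KEGG entry for complement and coagulation cascades, leaving out 4 integrin genes. Of 83 such genes among 30266 in the table, 79 had at least 10 reads in 4 or more of the 8 libraries used, and these are the members described. They comprise 36 genes of coagulation, 7 of fibrinolysis and 36 of complement, a split made from the known role of each gene. The treated group received recombinant FGF21 (rFGF21) at 1.0 mg/kg and the other group received PBS as vehicle. Liver was taken 4 h later from 8-week-old mice, with 4 libraries in each group. Mdr2 is the older name of Abcb4, which moves phosphatidylcholine into bile, and its loss in mice leads to bile duct inflammation and fibrosis. Animals of both groups carry that genotype label, so no group without the disease model was compared.

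The liver makes most clotting factors, fibrinogen, plasminogen and the soluble complement proteins, and secretes them into plasma. In coagulation, a chain of proteases ends in thrombin, which cuts fibrinogen to fibrin, and factor XIII cross-links the fibrin. Fibrinolysis removes the clot through plasmin, made from plasminogen by the activators encoded by Plat and Plau. Complement is started by antibody-bound C1, by lectins or spontaneously at C3, and all routes lead to cleavage of C3 and C5 and to the membrane attack complex. In acute inflammation, hepatocytes raise fibrinogen and several complement proteins through interleukin-6 and STAT3. Cells other than hepatocytes supply some components, such as C1q from macrophages, von Willebrand factor from endothelium and the A subunit of factor XIII from monocytes, macrophages and platelets.

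The promoters of the 3 fibrinogen genes and of F13a1 are shown because Fga and F13a1 were the only members called by the main test, and Fgb and Fgg are the neighbours and partners of Fga. Fgg, Fga and Fgb lie within 42140 bases of chromosome 3. Each sequence is the 250 bases before the RefSeq start (build GRCm38.p6), 5′ to 3′ on the gene's strand. For Fga that start lies 77 bases inside the gene as the deposited table places it. The last 77 bases shown, with the ATTAAC match, thus fall within that gene span. Capitals mark matches on either strand to any of 9 motifs searched. Short ones were TTCNNNGAA (STAT), CTGGGAA (an interleukin-6 element), GTTAAT (an HNF1 half-site), TTGCGCAA and TTNCNNAA (C/EBP), and TGANTCA (AP-1). The others were the full HNF1, DR1 and FXR-type IR1 motifs.
Fga, chr3:83025903-83026152, plus strand: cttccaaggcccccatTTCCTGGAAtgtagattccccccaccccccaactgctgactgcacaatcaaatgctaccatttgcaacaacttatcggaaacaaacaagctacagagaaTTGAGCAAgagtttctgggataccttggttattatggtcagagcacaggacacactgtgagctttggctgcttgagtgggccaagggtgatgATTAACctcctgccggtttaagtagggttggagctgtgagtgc
Fgb, chr3:83049864-83050113, minus strand: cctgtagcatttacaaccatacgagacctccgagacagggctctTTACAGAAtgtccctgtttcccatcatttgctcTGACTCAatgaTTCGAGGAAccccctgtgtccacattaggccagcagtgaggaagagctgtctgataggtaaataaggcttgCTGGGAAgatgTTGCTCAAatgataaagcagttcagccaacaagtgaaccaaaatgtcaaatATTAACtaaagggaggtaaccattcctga
Fgg, chr3:83007474-83007723, plus strand: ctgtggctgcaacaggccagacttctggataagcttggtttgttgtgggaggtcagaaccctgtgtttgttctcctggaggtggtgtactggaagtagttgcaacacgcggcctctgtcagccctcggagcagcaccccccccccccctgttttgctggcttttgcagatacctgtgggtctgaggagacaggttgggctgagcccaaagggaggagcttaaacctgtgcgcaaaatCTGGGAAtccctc
F13a1, chr13:37050245-37050494, minus strand: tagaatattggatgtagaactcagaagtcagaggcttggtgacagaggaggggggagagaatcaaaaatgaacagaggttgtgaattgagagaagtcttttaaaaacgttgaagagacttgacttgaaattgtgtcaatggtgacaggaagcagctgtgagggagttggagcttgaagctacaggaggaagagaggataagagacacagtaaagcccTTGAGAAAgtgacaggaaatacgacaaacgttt

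The Fga window holds a match to TTCNNNGAA, and the Fgb window holds matches to both TTCNNNGAA and CTGGGAA. The Fgg window holds 1 match, to CTGGGAA, ending 7 bases before the start, and the F13a1 window holds 1 match, to TTNCNNAA. Among all 32851 windows of this length in the table, 7.02% held TTCNNNGAA and 9.10% held CTGGGAA. These windows belong to 27025 genes, some with more than 1 window. Of the 79 members, 60 had a window, and for each the 1 nearest its start in the deposited table was read. The shares of all windows are thus per window and those of members per gene. TTCNNNGAA was found in 8 of these 60 (13.3%) and CTGGGAA in 10 (16.7%). GTTAAT was found in 17 members (28.3%), against 6.43% of all windows, and TGANTCA in 12 (20%), against 6.75%. TTNCNNAA, a loose motif, was found in 29 members (48.3%) and in 36.8% of all windows, and TTGCGCAA in 1 member and in 0.164% of all windows. The full HNF1, DR1 and IR1 motifs were in no member's window and in at most 0.0335% of all windows. A match is a run of letters only, and the windows of related genes such as Serpina1a to Serpina1e share sequence.

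The libraries held between 62756328 and 73313449 reads. The label of liver was checked against hepatocyte genes (Alb, Apoa1, Apob, Ttr, Tat, Hnf4a and Cps1), which summed to 60608 to 75662 CPM in rFGF21 and 63806 to 82437 CPM in PBS libraries. Most of each sum was Alb, as with 54648 of 71902 CPM in rFGF21 library 1, so the sums say little about the other genes. CPM is a read count divided by the effective library size after TMM scaling, a trimmed mean of M-values that puts libraries on a common scale. The photoreceptor genes Crx and Rcvrn, read because the labels' extraction protocol names retina, had 0 reads in every library. Libraries are named by group and by the number in their column.

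Of the 79 members, 2 changed after rFGF21 and both were higher: F13a1, the A subunit of the fibrin-cross-linking enzyme, and Fga, the fibrinogen alpha chain. Calls were made at an adjusted p under 0.05 (Benjamini-Hochberg) in the quasi-likelihood test of edgeR. The 2 calls are 2.53% of members, against 2.82% of all 18315 genes tested (1.15% higher and 1.67% lower), a share near the background. No member fell by this test. At an unadjusted p under 0.05, 12 members were higher and 8 lower (25.3%), against 18.8% of all genes tested (8.92% higher and 9.86% lower). The rFGF21 and PBS libraries did not overlap for 14 members (17.7%), 8 with rFGF21 higher and 6 with rFGF21 lower, against 12.3% of all genes tested (5.90% higher and 6.39% lower). DESeq2 called 8 members higher and 4 lower of 77 tested (15.6%), against 8.35% of all genes by that tool (4.00% higher and 4.35% lower). Limma-voom called 2 members higher, Fga and Plau, where it called 2.66% of all genes (1.08% higher and 1.58% lower). Other settings named with the results called 2.77% of all genes with median-of-ratios factors, 2.82% with upper-quartile factors, 2.80% with the read minimum of the members, 0.672% with no filter, 3.18% with robust dispersion and 1.45% on TPM values. Leaving out rFGF21 library 1, 2, 3 or 5 called 0.701%, 1.48%, 1.51% and 0.920% of all genes, and leaving out PBS library 1, 2, 4 or 5 called 1.11%, 1.89%, 2.60% and 1.34%. In the 6 libraries whose numbers occur in both groups, 0.0650% were called with the number as a block and 1.52% without it. The median log2 fold change of the members was -0.07 and that of all genes tested was 0.003. The fold changes of 47 members (59.5%) and of 49.6% of all genes tested were below 0. Beyond 1 log2 unit lay 4 members, among them F13a1 and A2m above and Serpina5 below.

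**Figure D1:**
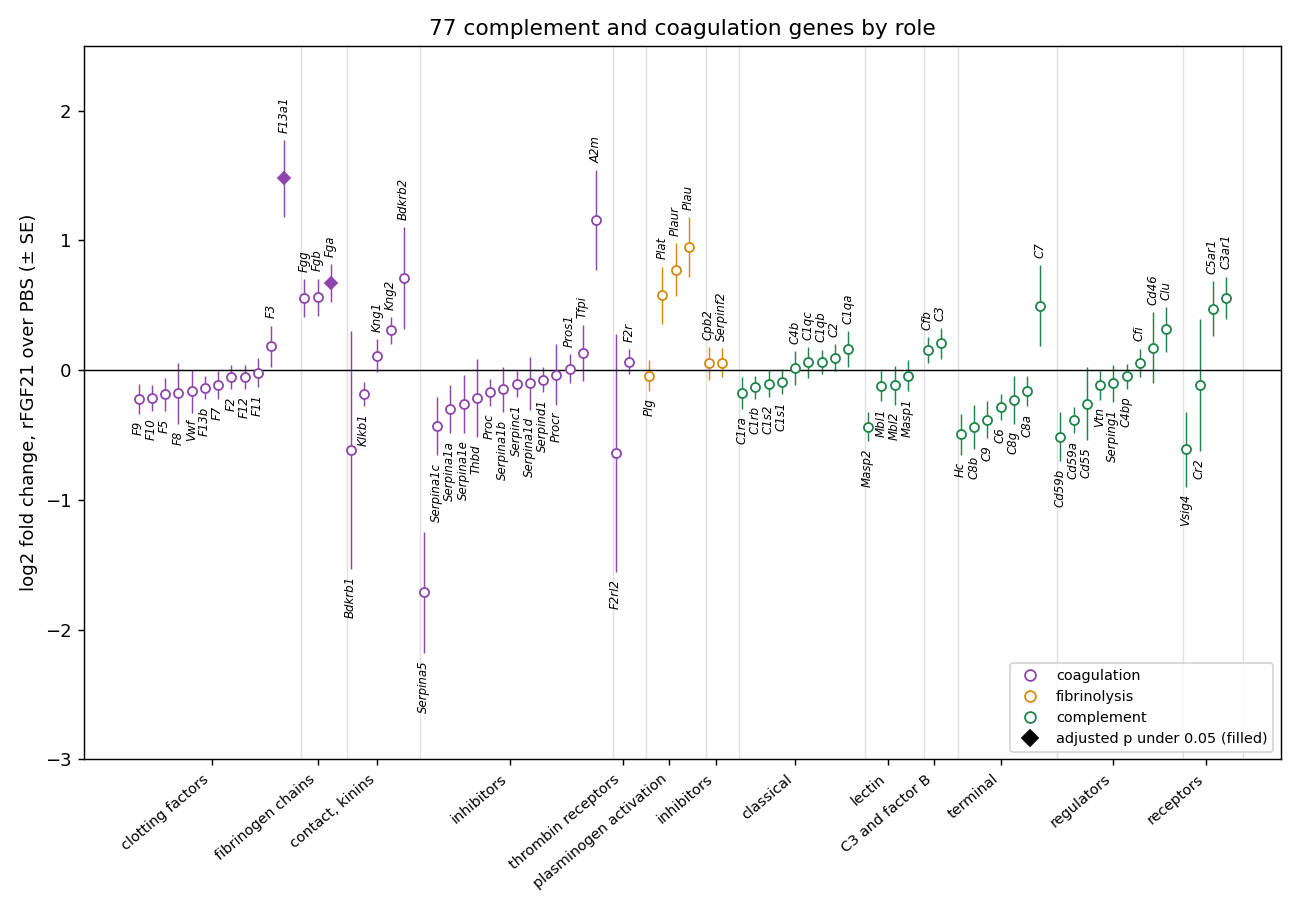
Log2 fold change of rFGF21 over PBS with its SE for 77 of the 79 members, grouped by role within coagulation, fibrinolysis and complement. Filled diamonds are the 2 members past the edgeR threshold, F13a1 and Fga; all 3 fibrinogen chains and 3 of the 4 genes of plasminogen activation lie above 0, and 6 of the 7 terminal complement genes lie below 0.

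Of the 3 fibrinogen chains, 1 passed the edgeR test, Fga, which was higher after rFGF21. Fga (ENSMUSG00000028001, GRCm38 chromosome 3, 83026076 to 83033627) was read at 4863, 6162, 4678 and 5460 CPM in rFGF21 libraries 1, 2, 3 and 5, against 2627, 3039, 3875 and 3738 CPM in PBS libraries 1, 2, 4 and 5. Every rFGF21 library lay above every PBS library. Fga rose 1.59-fold, with a log2 fold change of 0.67 ± 0.15 (SE, edgeR adjusted p = 0.0394). The call of Fga was lost when any 1 library other than PBS library 4 was left out (edgeR adjusted p 0.0615 to 0.0978), while Fgb passed without PBS library 4 (0.0359). Fgb, the beta chain, stood at 5093, 6609, 5042 and 4924 CPM in rFGF21, against 3063, 3342, 4345 and 3909 CPM in PBS libraries. Fgg, the gamma chain, stood at 3296, 4496, 3384 and 3412 CPM in rFGF21, against 2083, 2203, 2844 and 2774 CPM in PBS libraries. Neither chain's groups overlapped, and rFGF21 library 2 was the highest for all 3 chains. The log2 differences of Fgb (0.56 ± 0.14, edgeR adjusted p = 0.0638) and Fgg (0.56 ± 0.15, edgeR adjusted p = 0.0697) did not pass. DESeq2 called all 3 chains higher, with adjusted p = 0.000169 for Fga, 0.00187 for Fgb and 0.00269 for Fgg.

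Per length, the 3 chains summed to 4637, 5904, 4526 and 5169 RPKM in rFGF21, against 2666, 2979, 3480 and 3435 RPKM in PBS libraries. RPKM is the read count divided by the merged exon length in GENCODE M21 and by the library total. The lowest rFGF21 sum thus exceeded the highest PBS sum. The chains kept similar proportions of that sum. Fga made up 35.8 ± 1.8% in rFGF21 and 33.9 ± 0.9% in PBS libraries, Fgb 28.9 ± 1.1% and 29.7 ± 0.7%, and Fgg 35.4 ± 0.9% and 36.5 ± 0.7% (SD, n = 4 each). These proportions were not tested. Fgg overlaps the gene Gm30097 on the other strand, and no source used here states the strand setting of the counting.

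F13a1 (ENSMUSG00000039109, GRCm38 chromosome 13, 36867178 to 37050244) was a low-level transcript, counted with 55 to 279 reads per library. It stood at 3.72, 3.92, 2.22 and 1.88 CPM in rFGF21 libraries 1, 2, 3 and 5, against 1.09, 1.31, 1.01 and 0.800 CPM in PBS libraries 1, 2, 4 and 5. The groups did not overlap, and rFGF21 libraries 1 and 2 were the highest. It rose 2.79-fold (log2 fold change 1.48 ± 0.29 SE, edgeR adjusted p = 0.0285). F13b, the carrier subunit made by hepatocytes, averaged 187 ± 9.8 CPM in rFGF21 and 206 ± 14.8 CPM in PBS libraries and did not pass (edgeR adjusted p = 0.468). The call of F13a1 was lost without rFGF21 library 1 (edgeR adjusted p = 0.0968) or 2 (0.0697), or PBS library 1 (0.0726), 4 (0.0525) or 5 (0.0703).

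**Figure D2:**
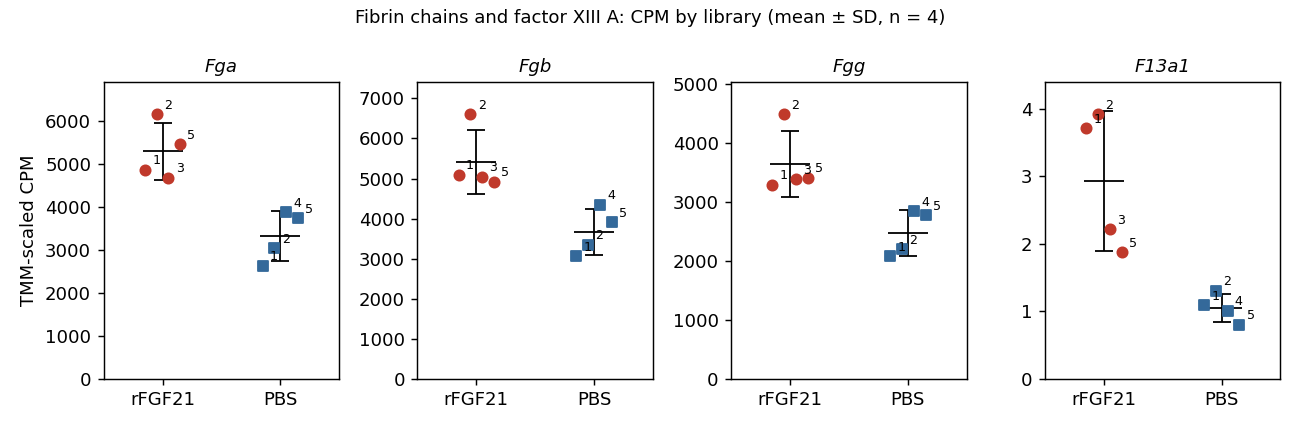
TMM-scaled CPM (linear axes from 0) of the fibrinogen chain genes Fga, Fgb and Fgg and of F13a1 in each library, rFGF21 left and PBS right, with the column number beside each point and the mean ± SD as bars. In each panel the 4 rFGF21 libraries lie above the 4 PBS libraries, and rFGF21 library 2 is the highest.

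The proteases and cofactors upstream of fibrin gave no call. Of the 12 clotting factor genes, F13a1 was the only one past the threshold, and 10 of the 12 fold changes were below 0, between -0.22 and -0.02. F2, prothrombin, stood at 1682, 1699, 1579 and 1565 CPM in rFGF21, against 1711, 1553, 1766 and 1753 CPM in PBS libraries, so the groups overlapped. Its log2 fold change was -0.06, with a 95% interval of -0.26 to 0.15. F7, the protease that pairs with tissue factor, averaged 114 ± 14.8 CPM in rFGF21 and 124 ± 8.2 CPM in PBS libraries (edgeR adjusted p = 0.632). F5, the cofactor of the prothrombinase complex, averaged 451 ± 10.2 CPM in rFGF21 and 513 ± 96.3 CPM in PBS libraries (0.478). F11, a protease of the intrinsic route, averaged 73.3 ± 4.0 and 74.3 ± 11.2 CPM (0.952). F3, tissue factor, which starts clotting, was low, at 9.16 ± 1.41 CPM in rFGF21 and 8.06 ± 1.36 CPM in PBS libraries (0.586). F9 and F10, vitamin K-dependent proteases, had log2 fold changes of -0.22 ± 0.12 and -0.21 ± 0.10 without passing. The endothelial products Vwf and F8 had log2 fold changes of -0.16 ± 0.16 and -0.18 ± 0.24.

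Among 5 genes of the contact and kinin system, none passed by edgeR. An unadjusted p under 0.05 was seen for 1 (20%), against 18.8% of all genes tested. DESeq2 called 1, Kng2, where it called 8.35% of all genes. Kng2, a kininogen gene, stood at 317, 363, 336 and 273 CPM in rFGF21, against 278, 254, 253 and 257 CPM in PBS libraries. The groups overlapped through rFGF21 library 5, and the log2 difference was 0.31 ± 0.10 (edgeR adjusted p = 0.145, DESeq2 adjusted p = 0.0444). Kng1, the more abundant copy, averaged 1780 ± 229 CPM in rFGF21 and 1646 ± 194 CPM in PBS libraries. Klkb1, plasma prekallikrein, had a log2 fold change of -0.18 ± 0.09, and the bradykinin receptors Bdkrb1 and Bdkrb2 had -0.61 ± 0.92 and 0.71 ± 0.39. Kng1 and Kng2 are close copies, and no source used here states how reads shared between such genes were counted.

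The genes grouped as inhibitors in coagulation gave no edgeR call among 14, with 2 at an unadjusted p under 0.05 and 1 DESeq2 call, Serpina5. Those 2 were 14.3% of the 14, against 18.8% of all genes tested, and DESeq2 called 8.35% of all genes. Serpina5, the protein C inhibitor, was read at 0.173, 0.155, 0.123 and 0.106 CPM in rFGF21, against 0.341, 0.330, 0.445 and 0.728 CPM in PBS libraries. The groups did not overlap, but the gene had only 8 to 50 reads per library and was 1 of the 4 members with the lowest RPKM. Its log2 difference was -1.71 ± 0.46 (edgeR adjusted p = 0.0801, DESeq2 adjusted p = 0.0365). A2m, a broad protease inhibitor, was read at 0.932, 2.10, 1.11 and 0.992 CPM in rFGF21, against 0.454, 0.928, 0.479 and 0.437 CPM in PBS libraries. The groups were separated only narrowly, by rFGF21 library 1 and PBS library 2, and the log2 difference was 1.16 ± 0.38 (edgeR adjusted p = 0.136).

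The main liver anticoagulants were close between groups. Serpinc1, antithrombin, averaged 1787 ± 77 CPM in rFGF21 and 1925 ± 153 CPM in PBS libraries, with a 95% interval of the log2 fold change of -0.32 to 0.11. Proc, protein C, averaged 474 ± 26.5 CPM in rFGF21 and 534 ± 59.6 CPM in PBS libraries (edgeR adjusted p = 0.423). Thbd, thrombomodulin, and Procr, the protein C receptor, both of endothelium, averaged 3.65 ± 1.13 and 2.37 ± 0.52 CPM in rFGF21, against 4.23 ± 1.68 and 2.42 ± 0.51 CPM in PBS libraries. The 5 alpha-1-antitrypsin genes Serpina1a to Serpina1e had log2 fold changes between -0.43 and -0.10 and none passed. In each of the 5, rFGF21 library 5 was the lowest rFGF21 library and PBS library 5 the highest PBS library. These genes are near-identical copies, so their separate counts are uncertain. The thrombin receptor F2r had a log2 fold change of 0.07 ± 0.10, and F2rl2, with at most 14 reads in any library, could not be read at a useful precision.

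In fibrinolysis, none of 7 members passed by edgeR. At an unadjusted p under 0.05, 4 (57.1%) were higher after rFGF21 and none lower, against 8.92% and 9.86% of all genes tested. These shares rest on 7 genes. DESeq2 called Plau and Plaur higher, and limma-voom called Plau, where these tools called 4.00% and 1.08% of all genes higher. Plau encodes the urokinase plasminogen activator (ENSMUSG00000021822, GRCm38 chromosome 14, 20836660 to 20843385). It stood at 5.77, 4.95, 4.86 and 5.92 CPM in rFGF21 libraries, against 2.83, 4.06, 1.88 and 2.36 CPM in PBS libraries 1, 2, 4 and 5. The groups did not overlap, and PBS library 2 was the closest to the rFGF21 libraries. The log2 difference was 0.95 ± 0.23 (edgeR adjusted p = 0.0573, DESeq2 0.00256, limma-voom 0.0416), and edgeR called the gene without PBS library 2 (0.0260). Plaur, the cell-surface receptor of urokinase (ENSMUSG00000046223, GRCm38 chromosome 7, 24462484 to 24475968), stood at 4.42, 3.89, 3.61 and 3.54 CPM in rFGF21, against 2.19, 1.59, 2.75 and 2.52 CPM in PBS libraries. Its groups did not overlap either, with a log2 difference of 0.77 ± 0.21 (edgeR adjusted p = 0.0751, DESeq2 0.00939).

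Plat, tissue plasminogen activator, stood at 16.1, 12.8, 10.3 and 18.4 CPM in rFGF21, against 10.6, 11.97, 6.24 and 9.85 CPM in PBS libraries. Its groups overlapped through rFGF21 library 3, with a log2 difference of 0.58 ± 0.22 (edgeR adjusted p = 0.190). The abundant liver-made components differed little. Plg, plasminogen, averaged 1993 ± 173 CPM in rFGF21 and 2054 ± 274 CPM in PBS libraries, with a 95% interval of the log2 fold change of -0.31 to 0.22. Serpinf2, which blocks plasmin, averaged 988 ± 131 and 950 ± 34 CPM (interval -0.19 to 0.30), and Cpb2, which protects fibrin from plasmin, 406 ± 44.2 and 391 ± 57.0 CPM (interval -0.23 to 0.33).

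**Figure D3:**
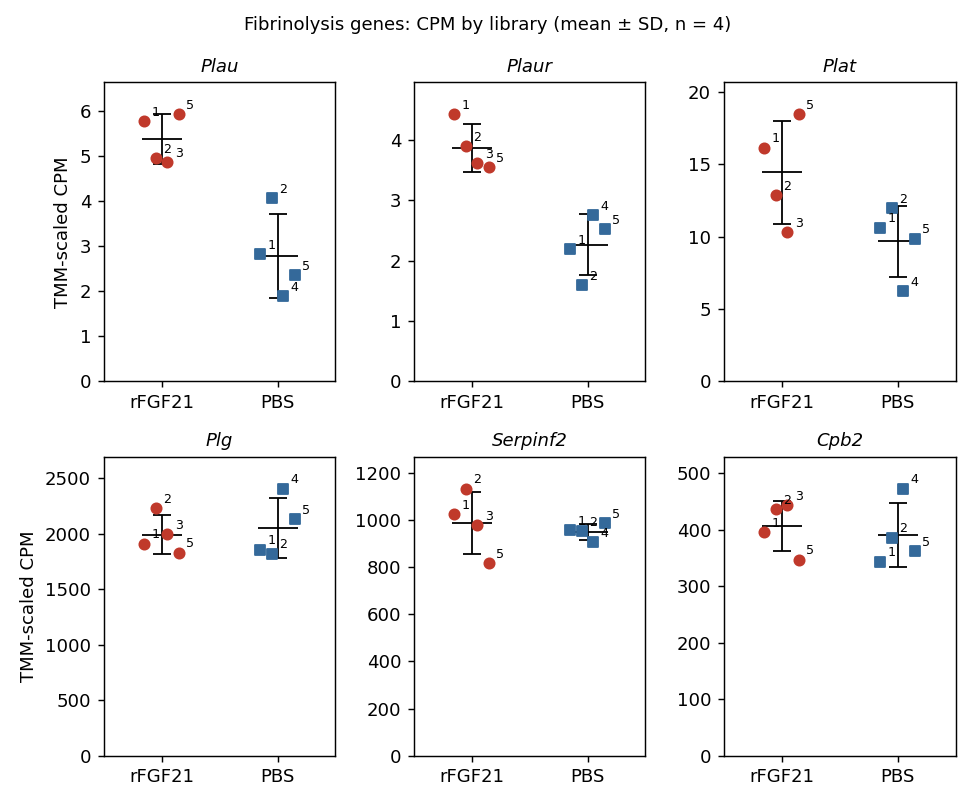
TMM-scaled CPM (linear axes from 0) of 6 fibrinolysis genes in each library, rFGF21 left and PBS right, with column numbers and mean ± SD. Plau and Plaur separate the groups without overlap, and Plat, Plg, Serpinf2 and Cpb2 overlap.

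None of the 36 complement members passed by edgeR. At an unadjusted p under 0.05, 2 were higher and 7 lower (25%), against 8.92% and 9.86% of all genes tested (18.8%). DESeq2 called C3ar1 higher and Masp2, Cd59a and Hc lower, where it called 4.00% of all genes higher and 4.35% lower. The 9 genes of the classical route had none at an unadjusted p under 0.05, none called by DESeq2 and none whose groups were apart, with a median log2 fold change of 0.02. C1qa, a chain of the recognition protein C1q, averaged 178 ± 17.6 CPM in rFGF21 and 159 ± 29.9 CPM in PBS libraries (edgeR adjusted p = 0.580). C1qb and C1qc, the other chains, had log2 fold changes of 0.06 ± 0.09 and 0.06 ± 0.12. C4b, the classical C4 gene, averaged 2195 ± 330 CPM in rFGF21 and 2170 ± 260 CPM in PBS libraries, with an interval of -0.28 to 0.31. The protease genes C1ra, C1rb, C1s1 and C1s2, which come in near-identical pairs, had log2 fold changes between -0.18 and -0.09.

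Among 4 genes of the lectin route, Masp2, the protease that cleaves C4 and C2, stood apart. It was read at 154, 148, 151 and 140 CPM in rFGF21, against 191, 174, 244 and 194 CPM in PBS libraries. All rFGF21 libraries lay below all PBS libraries, with a log2 difference of -0.44 ± 0.11 (edgeR adjusted p = 0.0661, DESeq2 0.00728, limma-voom 0.0581). Masp2 overlaps Tardbp on the other strand, so part of its count may belong to that gene. Masp1, a related protease, averaged 195 ± 5.6 CPM in rFGF21 and 201 ± 36.8 CPM in PBS libraries (edgeR adjusted p = 0.896). The mannose-binding lectin gene Mbl2 averaged 463 ± 90.6 and 502 ± 63.4 CPM (0.737).

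C3, the central component, was the member with the highest RPKM, and it stood at 17394, 21470, 20226 and 17856 CPM in rFGF21, against 14736, 18352, 18564 and 15057 CPM in PBS libraries. The groups overlapped, and the log2 difference was 0.21 ± 0.12 (edgeR adjusted p = 0.396). Cfb, the protease of the alternative route, stood at 2595, 2591, 2711 and 2167 CPM in rFGF21, against 2342, 2289, 2274 and 2137 CPM in PBS libraries. Its rFGF21 libraries 1, 2 and 3 lay above all PBS libraries while library 5 did not, and it did not pass (0.15 ± 0.10, edgeR adjusted p = 0.452).

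The terminal components, which form the membrane attack complex, were mostly lower without an edgeR call. Of 7 members 6 had fold changes below 0, with a median of -0.28, where 49.6% of all genes tested were below 0. At an unadjusted p under 0.05, 4 were lower, against 9.86% of all genes tested. Hc encodes C5 (ENSMUSG00000026874, GRCm38 chromosome 2, 34983331 to 35061438). It stood at 166, 230, 216 and 200 CPM in rFGF21, against 230, 255, 373 and 285 CPM in PBS libraries, with rFGF21 library 2 just below PBS library 1. Its log2 difference was -0.49 ± 0.16 (edgeR adjusted p = 0.126, DESeq2 0.0331). C6 stood at 440, 428, 430 and 407 CPM in rFGF21, against 503, 464, 509 and 597 CPM in PBS libraries, again without overlap (-0.28 ± 0.10, edgeR adjusted p = 0.163). C9, the pore-forming component, stood at 702, 809, 712 and 572 CPM in rFGF21, against 803, 773, 956 and 1108 CPM in PBS libraries. Its groups overlapped through rFGF21 library 2 (-0.38 ± 0.14, edgeR adjusted p = 0.186). C8b had a log2 difference of -0.44 ± 0.17 (edgeR adjusted p = 0.200), and C8a and C8g had -0.16 ± 0.12 and -0.23 ± 0.18. C7, at 3.52 ± 0.92 CPM in rFGF21 and 2.49 ± 1.04 CPM in PBS libraries, was the exception in sign (0.50 ± 0.31). On TPM-scaled values, where the median log2 fold change of all genes was 0.12, C8a turned to 0.0014, and the values of Hc, C6, C9, C8b and C8g lay between -0.30 and -0.026.

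Among 10 regulators that protect host cells, the CD59 genes, whose products block assembly of the membrane attack complex, were the ones whose groups did not overlap. These 2 genes were 20% of the 10, against 12.3% of all genes tested. Cd59a stood at 33.9, 33.0, 33.2 and 30.2 CPM in rFGF21, against 41.3, 44.7, 48.4 and 35.8 CPM in PBS libraries (log2 difference -0.39 ± 0.10, edgeR adjusted p = 0.0751, DESeq2 0.0250). Cd59b, its low-level copy, stood at 2.16, 2.37, 2.38 and 1.85 CPM in rFGF21, against 3.80, 2.89, 2.84 and 2.95 CPM in PBS libraries (-0.51 ± 0.19, edgeR adjusted p = 0.174). Reads shared by this pair may be split between them. Cfi, factor I, averaged 797 ± 93.8 CPM in rFGF21 and 766 ± 42.8 CPM in PBS libraries (edgeR adjusted p = 0.833). Clu, clusterin, averaged 11464 ± 1545 CPM in rFGF21 and 9223 ± 2161 CPM in PBS libraries (0.366), and Vtn, vitronectin, 2748 ± 305 and 2976 ± 216 CPM (0.633).

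Of the 4 receptor genes, those of the anaphylatoxins were the ones at an unadjusted p under 0.05. They were 2 of the 4 (50%), against 18.8% of all genes tested. C3ar1, the C3a receptor of myeloid cells, stood at 19.3, 20.1, 23.4 and 29.5 CPM in rFGF21, against 16.5, 19.1, 12.7 and 14.4 CPM in PBS libraries. The groups were apart by a narrow margin between rFGF21 library 1 and PBS library 2, with a log2 difference of 0.56 ± 0.16 (edgeR adjusted p = 0.0999, DESeq2 0.0222). C5ar1, the C5a receptor, stood at 7.18, 8.23, 7.17 and 7.79 CPM in rFGF21, against 6.10, 4.07, 3.99 and 7.67 CPM in PBS libraries. PBS library 5 reached into the rFGF21 range (0.47 ± 0.21, edgeR adjusted p = 0.258). Vsig4, a complement receptor of Kupffer cells, ranged from 16.4 to 52.7 CPM in rFGF21 and from 41.0 to 60.8 CPM in PBS libraries (-0.61 ± 0.29, edgeR adjusted p = 0.285).

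**Figure D4:**
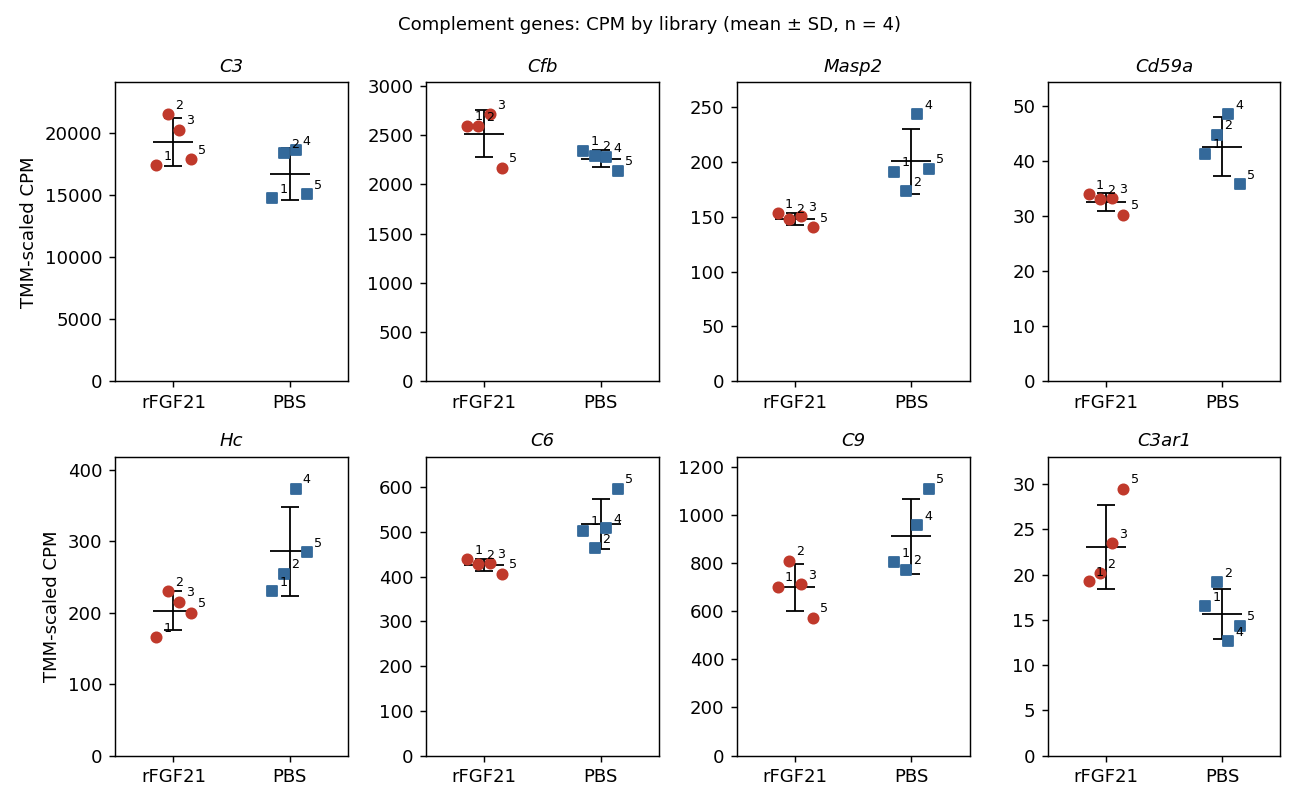
TMM-scaled CPM (linear axes from 0) of 8 complement genes in each library, rFGF21 left and PBS right, with column numbers and mean ± SD. Masp2, Cd59a, Hc and C6 are lower in all 4 rFGF21 libraries than in any PBS library, C3ar1 is higher, and C3, Cfb and C9 overlap.

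The members spanned a wide range of levels. By mean RPKM over the 8 libraries the highest were C3 (3495), Clu (3022), Serpina1c (2346), Serpina1a (1654), Fgg (1467), Fga (1438) and Vtn (1407). C3 and Clu overlapped in their ranges across libraries (2799 to 4156 and 1768 to 3987 RPKM), as did Fgg and Fga (993 to 2139 and 871 to 2038 RPKM). At least 10 RPKM, a limit chosen after the values were seen, was reached by 56 members, of which 37 had fold changes below 0 and none went beyond 1 log2 unit. Among the 23 members under 10 RPKM, 13 were above 0, and all 4 members beyond 1 log2 unit were among them. Together the 79 members took 8.31 to 9.19% of all reads in rFGF21 and 7.16 to 7.85% in PBS libraries. The complement genes took 4.73 to 5.18% in rFGF21 and 3.85 to 4.76% in PBS libraries, so those groups overlapped slightly, and the coagulation genes 3.18 to 3.80% in rFGF21 and 2.59 to 3.35% in PBS libraries. These shares of reads are before TMM scaling and are carried mostly by a few genes such as C3, Clu and fibrinogen, and they were not tested.

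The low-level members include products of cells other than hepatocytes, and markers of those cells were read in the same libraries. In bulk tissue, fewer cells of a type and less RNA per cell cannot be told apart. At an unadjusted p under 0.05, 8.92% of all genes tested were higher and 9.86% lower. DESeq2 called 4.00% of all genes higher and 4.35% lower. Of 7 monocyte markers, among them Ccr2, Ly6c2, Lyz2, Chil3, Fn1 and Plac8, none passed by edgeR, 4 were higher at an unadjusted p under 0.05, and DESeq2 called 1, Ccr2. Their summed level was 2141 to 2555 CPM in rFGF21 and 1712 to 2117 CPM in PBS libraries. Without Fn1, which hepatocytes also make, the other 6 summed to 398 to 524 CPM in rFGF21 and 242 to 496 CPM in PBS libraries, and those groups overlapped. Lyz2 made up most of that sum and also overlapped, at 320 to 440 CPM in rFGF21 and 204 to 443 CPM in PBS libraries. Without Fn1 and Lyz2, a split made after the values were seen, the other 5 summed to 58.9 to 83.4 CPM in rFGF21 and 38.2 to 53.2 CPM in PBS libraries. Of 8 Kupffer and macrophage markers none passed, 1 was lower at an unadjusted p under 0.05, and DESeq2 called none, with sums of 345 to 672 CPM in rFGF21 and 505 to 835 CPM in PBS libraries. Of 5 tested platelet genes none passed, none had an unadjusted p under 0.05 and DESeq2 called none. Those platelet sums, over 8 listed genes, were 5.39 to 6.59 CPM in rFGF21 and 4.61 to 8.02 CPM in PBS libraries. The same held for 8 endothelial genes, with sums of 88.5 to 168 CPM in rFGF21 and 94.9 to 202 CPM in PBS libraries. Of 6 tested neutrophil genes, 2 were higher at an unadjusted p under 0.05 and neither edgeR nor DESeq2 called any. Of 6 cholangiocyte genes, 5 were higher at an unadjusted p under 0.05, edgeR called none and DESeq2 called 3, with sums of 240 to 376 CPM in rFGF21 and 170 to 271 CPM in PBS libraries. Of 6 erythroid genes, 3 were higher at an unadjusted p under 0.05, edgeR called none and DESeq2 called 2, with sums of 412 to 756 CPM in rFGF21 and 303 to 415 CPM in PBS libraries. No marker of these lists was at 0 in every library. The part of monocytes in the values of F13a1, Plau, Plaur, C3ar1 and C5ar1 was not tested.

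Partners of these pathways outside the KEGG entry gave no edgeR call. Of 25 such genes, which include the vitamin K enzymes Ggcx and Vkorc1, the plasminogen-binding Anxa2 and S100a10, properdin (Cfp) and the lectins Colec10 and Colec11, 3 were higher and 4 lower at an unadjusted p under 0.05. DESeq2 called 1 higher and 1 lower. Of all genes tested, 8.92% were higher and 9.86% lower at an unadjusted p under 0.05. DESeq2 called 4.00% of all genes higher and 4.35% lower. The smallest p was that of Anxa2, named after its value was seen, with 176 CPM in rFGF21 and 109 CPM in PBS libraries on average (0.69 ± 0.17, edgeR adjusted p = 0.0540).

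The 4 genes of the KEGG entry below the read minimum were Cd55b, F2rl3, Cfd and Serpinb2. Cd55b was at 0 reads throughout, a count that leaves room for up to 3 reads in each library, and F2rl3 had at most 5. Serpinb2, an inhibitor of urokinase, had 10, 0, 4 and 14 reads in rFGF21 and 0, 0, 0 and 4 reads in PBS libraries. Cfd, factor D, a product of fat cells, had 0, 0, 3 and 0 reads in rFGF21 and 53, 244, 0 and 6 reads in PBS libraries. Just inside the minimum lay F2rl2, Bdkrb1 and Serpina5, with 10 reads or more in 4, 5 and 6 libraries.

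**Figure D5:**
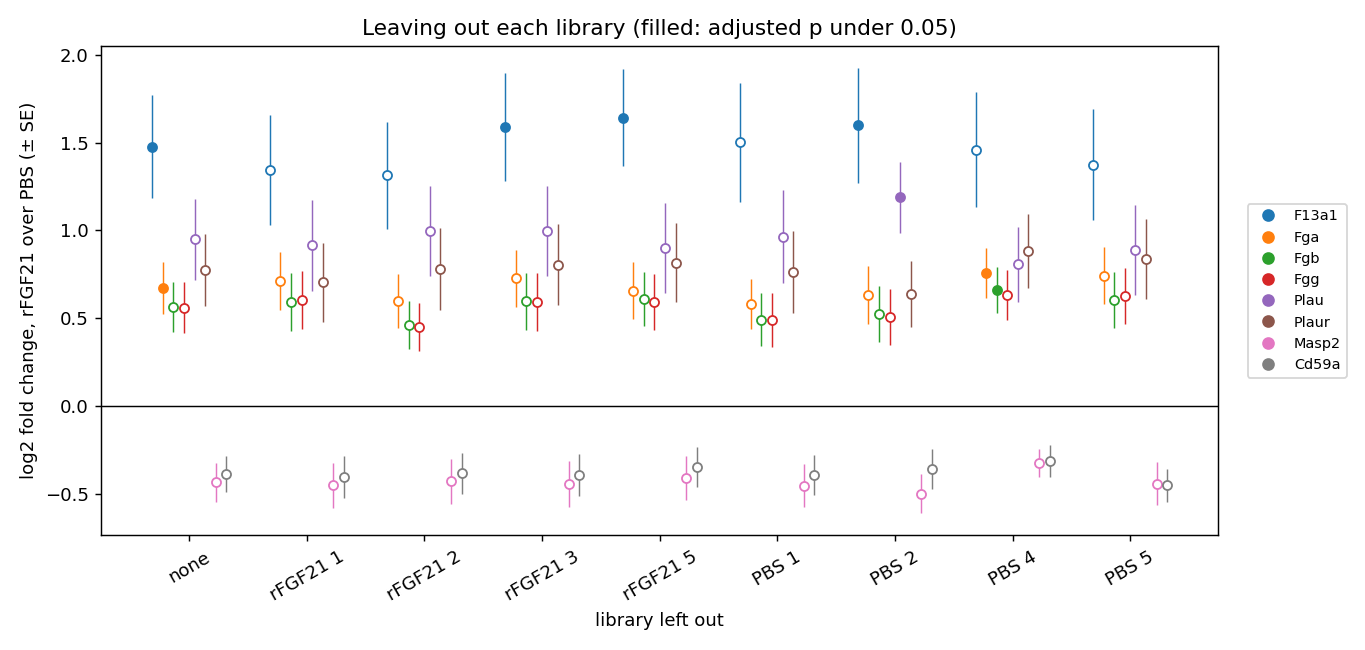
Log2 fold change of rFGF21 over PBS with its SE for 8 members with all libraries and with each library left out (x axis), filled where the edgeR adjusted p was under 0.05. Directions stay the same throughout, while the calls of F13a1 and Fga come and go with single libraries, Fgb passes without PBS library 4 and Plau without PBS library 2.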

How the data were processed

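Liver RNA of 4 rFGF21 and 4 PBS libraries was compared. Whole-number read counts per gene were deposited by the authors, per the file headers. The submitters' processing notes name Bowtie 0.12.2 and build mm8. However, all 83 member IDs are in GENCODE M21 (GRCm38), 71 with identical coordinates, so coordinates are given as GRCm38. No source used here names the counting tool. Of 10 count columns the 8 with a matching FPKM column were used. The other 2 and the 8 FPKM columns, 10 in all, were not. Columns show a group and not which numbered sample. The labels do not say that samples came from separate animals, so p-values reflect only the spread among these libraries, which may be technical.

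The counts of the whole table were fitted with edgeR 4.0.16 in R 4.3.3 (filterByExpr, TMM, glmQLFit and glmQLFTest, two-sided, no covariates), and p-values were adjusted over 18315 genes. SEs follow from the F statistic. Alternatives used DESeq2 1.42.0 and limma 3.58.1, and log2(TPM + 1), computed from the counts and the GENCODE M21 exon lengths of 30177 genes, where fold changes of low genes are understated. Fits were tested on simulated data. The members, gene lists and motifs were chosen with earlier results of these data known. Genes named are those called, the 6 with the smallest p in each branch and a fixed set of central genes, besides members given by role. Some genes the rule names are not reported here. Promoter sequences are RefSeq's. Counting limits cover counting error only.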

Additional observations from a re-analysis of the deposited data

Results flagged for a closer look

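In 76 groups of 4 libraries (38 named members, 2 treatments), 7 had a library set apart from the other three of its group by a gap test, where chance flags about 1 in 20 groups. Fgb (6609 CPM against 4924 to 5093) and Fgg (4496 CPM against 3296 to 3412) were highest in rFGF21 library 2. So was A2m (2.10 CPM against 0.932 to 1.11). Without that library the log2 fold change was 0.46 for Fgb and 0.82 for A2m. In the PBS group, A2m was highest in library 2 (0.928 CPM against 0.437 to 0.479). F7 was lowest in rFGF21 library 5 (92.1 CPM against 121 to 123). Masp1 was highest in PBS library 4 (256 CPM against 182 to 183), and Cd59b in PBS library 1 (3.80 CPM against 2.84 to 2.95). Over all 79 members, rFGF21 library 2 was the highest of its group for 41 and rFGF21 library 5 the lowest for 45. What sets these libraries apart was not tested.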

How the results depend on the processing

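The main test called 2 members, both of coagulation. DESeq2 called 12 members (6 of coagulation, 2 of fibrinolysis, 4 of complement), and edgeR with no filter beyond 1 read called 0, with 0 in coagulation. Limma-voom called 1 in coagulation and 1 in fibrinolysis. On log2(TPM + 1), 3 members were called, Fga and Fgb of coagulation and Plaur of fibrinolysis. Leaving out each library gave 0 to 2 members in all, 0 to 2 in coagulation and 0 to 1 in fibrinolysis. The columns cannot be tied to the numbered samples, so the planned block on the labels' numbers was not run. For the numbers 1, 2 and 5 that columns of both groups carry, same-numbered deviations correlated at 0.065, -0.036 and -0.099. Pairs with unlike numbers ran from -0.076 to 0.12, so these correlations cannot tell whether the numbers pair the libraries. In these 6 libraries, a replicate block on the number gave 0 members in all and 0 in coagulation, against 1 and 1 without the block. The block and the TPM values were chosen after seeing the data, and the planned fits on the deposited FPKM columns were not run. F13a1 kept its call in 8 of 18 alternatives and Fga in 9. TPM scaling moved the median log2 fold change of all genes to 0.12 and that of the members to 0.099. Of 720 values over 40 members and 18 alternatives, 34 turned in sign, all of members without a call. On log2(TPM + 1), F2 was 0.12, F11 0.16, Plg 0.13, Masp1 0.14, Procr 0.10, F5 0.0036, F7 0.051, Proc 0.0061, Serpinc1 0.068, Mbl2 0.044 and Vtn 0.053. With the replicate block and without it in the same 6 libraries, F11 was 0.048 and 0.033, Plg 0.039 and 0.041, Mbl2 0.036 and 0.050, and Masp1 0.11 and 0.11. Over the fits without 1 library, F11 ran from -0.12 to 0.050, Thbd from -0.41 to 0.077, Procr from -0.16 to 0.11, Serpinf2 from -0.0088 to 0.14, Plg from -0.097 to 0.044, C4b from -0.081 to 0.098 and Masp1 from -0.084 to 0.10. The cause of these changes was not tested. Members with few reads, such as Serpina5, are limited by depth.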
